A study of Homo sapiens with 6 samples.

Results

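The 41 genes described here encode neuronal cytoskeleton, RNA-binding, synaptic vesicle, secretory granule, endosomal and membrane proteins. They were taken by name from a fixed list and were measured in astrocyte cultures. All 41 had at least 1 read, among 27439 genes with reads in the series. They comprise 13 cytoskeletal genes, 10 genes of synaptic vesicles, transmitter synthesis or transmitter transport, 6 RNA-binding genes, 4 secretory granule genes, 2 endosomal genes, 5 adhesion, membrane or growth cone genes, and the ubiquitin hydrolase gene UCHL1.

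The cultures were of astrocytes from H1, an established human embryonic stem cell line. Ventral midbrain astrocytes (VM iAst in the labels, here VM) gave 3 libraries, and control astrocytes whose regional label is forebrain (Control iAst, here Control) gave 3. Both groups carry replicate numbers 2, 3 and 4, and the labels give neither a treatment nor a transgene for either group. All libraries came from this 1 line, and the labels do not say whether libraries of a group came from separate cultures, so a p-value here reflects library-to-library spread, which may be technical. QuantSeq 3′ mRNA sequencing, which reads the 3′ end of polyadenylated RNA, gave 11617935 to 15391082 estimated reads per library. Levels are given as CPM, a gene's reads scaled to a fixed library total with edgeR's TMM factors. Differences are log2 fold changes of VM over Control ± SE, with adjusted p from edgeR's quasi-likelihood test across all 15984 genes that passed a filter on low counts, and the threshold was an adjusted p of 0.05.

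The labels give astrocyte as the source but hESC as the cell type. All 11 astrocyte markers were measured, with a summed level of 972 to 1784 CPM in VM and 1451 to 1910 CPM in Control. Most of this sum was CD44, GFAP and SOX9. These averaged 608, 371 and 191 CPM in VM, and 909, 362 and 258 CPM in Control. ALDH1L1 was at most 1.88 CPM in VM and 2.05 CPM in Control, and SLC1A2 at most 2.29 CPM in VM and 3.4 CPM in Control. S100B averaged 7.41 CPM in VM and 7.44 CPM in Control. Of the 11, AQP4, SLC1A3 and MLC1 were higher in VM, while with the replicate block described below GJA1, SOX9 and CD44 were lower, and 6 of the 11 log2 fold changes were positive and 5 negative. AQP4 and SLC1A3 were each called in 2 of the 6 fits that left out 1 library, and MLC1 in all 6. The 8 radial glia and progenitor markers, SLC1A3 among them, summed to 4807 to 6121 CPM in VM and 4268 to 4954 CPM in Control. Most of this was VIM, which averaged 4485 CPM in VM and 3609 CPM in Control. SOX2 averaged 462 CPM in VM and 528 CPM in Control, and NES 227 CPM in VM and 254 CPM in Control. Of these 8, 2 were called higher in VM and 1 lower. The 3 pluripotency markers together were at most 1.65 CPM in VM and 1.8 CPM in Control, and the 4 microglia markers at most 0.845 CPM in VM and 0.908 CPM in Control. The summed level of 6 mesenchymal markers was 253 to 324 CPM in VM against 703 to 1125 CPM in Control, and COL1A1, COL3A1 and PRRX1 were lower in VM. Without COL1A1 the sum was 13.1 to 18.0 CPM in VM and 31.9 to 77.5 CPM in Control, and LUM and DCN, which did not pass, were above Control in each VM library, with log2 fold changes of 2.37 ± 0.92 and 2.11 ± 0.80. LUM had 6, 0 and 15 reads in Control and DCN 4, 2 and 10, so both entered the test through VM. Oligodendrocyte lineage markers summed to 114 to 133 CPM in VM and 157 to 198 CPM in Control, with PDGFRA lower in VM. Neural crest markers summed to 31.2 to 84.0 CPM in VM and 43.6 to 103 CPM in Control. Most of this was PRPH, at 25.2 to 73.4 CPM in VM and 40.4 to 101 CPM in Control. Of 3 tested, 1 log2 fold change was positive and 2 were negative. The positive one was TFAP2B, with 33, 40 and 108 reads in VM and 0, 5 and 7 in Control, which entered the test through VM alone. It did not pass without the block (edgeR adjusted p = 0.0686, and 0.00394 with the block). The 8 proliferation markers summed to 1174, 4345 and 1076 CPM in VM replicates 2, 3 and 4, against 791, 2902 and 770 CPM in Control replicates 2, 3 and 4. Replicate 3 was thus the highest library for these markers in both groups.

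A neuron's shape rests on microtubules, with their tubulins and associated proteins, and on neurofilaments assembled from several subunits. Neuronal RNA-binding proteins of the ELAVL, CELF and RBFOX families control splicing and mRNA stability, while SNARE proteins and synaptotagmins drive vesicle release at synapses. Many of these genes are repressed outside neurons by REST, a zinc-finger repressor that binds the RE1 element. Some, among them MAP1B, DPYSL3, NCAM1 and TUBB3, are also transcribed in progenitor cells and glia, whereas RBFOX3 and the vesicular transmitter transporters mark differentiated neurons.

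The promoters below are shown because SYN1 and GAD2 hold the RE1 letters, and because CELF3 and NRN1 are genes whose level differed between the groups. They come from the RefSeq promoter table of build GRCh38.p14, which holds 250 bases before to 50 bases after each start, on the strand of the gene, and matched 30 of the 41 genes with 68 windows. The RE1 core was searched on both strands as its left part CAGCACC, its right part GGACAG, and both joined as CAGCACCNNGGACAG, so that each joined match also holds both parts. Capitals mark these parts. The joined letters occurred in 2 of the 68 windows (2.94%), against 18 of all 35116 windows (0.0513%). The 2 were in SYN1, which encodes the vesicle phosphoprotein synapsin I, at bases 20 to 34 of its window, and in GAD2, a GABA-synthesizing enzyme, at bases 172 to 186. The left part alone was in 7.35% of these genes' windows and 7.75% of all windows, and the right part in 27.9% and 20.5%. These are shares of windows and not of genes. RBFOX3 and ELAVL2 each gave several windows with the right part, and some ELAVL2 windows overlap. The windows are SYN1 at chrX:47619808-47620107 on the minus strand, GAD2 at chr10:26216122-26216421 on the plus strand, CELF3 at chr1:151716754-151717053 on the minus strand, and NRN1 at chr6:6003976-6004275 on the minus strand. The CELF3 window held neither part and the NRN1 window held the right part at bases 278 to 283. A match is a description of the letters and not a measured binding site.
SYN1: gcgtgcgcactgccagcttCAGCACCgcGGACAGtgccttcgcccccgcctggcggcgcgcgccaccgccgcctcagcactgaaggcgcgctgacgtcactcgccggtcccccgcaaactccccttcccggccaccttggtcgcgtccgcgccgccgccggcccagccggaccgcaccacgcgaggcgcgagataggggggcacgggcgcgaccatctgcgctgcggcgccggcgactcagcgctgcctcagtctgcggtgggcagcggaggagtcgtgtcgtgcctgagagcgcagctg
GAD2: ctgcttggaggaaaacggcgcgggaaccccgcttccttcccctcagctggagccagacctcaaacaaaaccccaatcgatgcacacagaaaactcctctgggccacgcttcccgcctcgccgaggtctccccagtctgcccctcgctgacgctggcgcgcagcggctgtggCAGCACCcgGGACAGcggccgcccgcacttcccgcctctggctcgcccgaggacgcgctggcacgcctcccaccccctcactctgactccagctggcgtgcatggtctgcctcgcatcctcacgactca
CELF3: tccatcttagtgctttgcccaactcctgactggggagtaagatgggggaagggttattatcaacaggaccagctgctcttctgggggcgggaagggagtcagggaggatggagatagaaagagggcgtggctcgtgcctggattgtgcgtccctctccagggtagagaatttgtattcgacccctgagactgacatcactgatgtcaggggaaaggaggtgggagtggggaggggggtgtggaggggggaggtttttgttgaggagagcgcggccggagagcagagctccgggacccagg
NRN1: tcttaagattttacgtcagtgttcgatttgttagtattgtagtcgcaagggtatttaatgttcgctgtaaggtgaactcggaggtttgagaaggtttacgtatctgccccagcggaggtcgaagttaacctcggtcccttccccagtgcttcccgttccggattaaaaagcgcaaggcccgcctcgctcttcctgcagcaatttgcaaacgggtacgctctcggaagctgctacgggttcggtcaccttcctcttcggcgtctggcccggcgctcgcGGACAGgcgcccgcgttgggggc

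Of the 41 neuronal genes, 35 passed the filter on low counts and were tested. CELF3 and TAGLN3 were higher in VM, and NRN1, NSG1 and CNTN1 were lower. These 5 calls stood against 2.15% of all tested genes called, with 1.06% higher and 1.09% lower. The log2 fold change was positive for 11 and negative for 24 of the 35, with a median of -0.51, beside a median of 0.01 over all tested genes. CNTN1 passed the filter through Control alone, and genes such as NSG2 and NEFM needed their Control libraries to pass. The counts and medians over the tested genes therefore describe them and test nothing. In bulk samples fewer cells of a type and less RNA per cell cannot be told apart.

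When the replicate number entered the fit as a block, 13 of the 35 passed, 2 higher and 11 lower, against 8.13% of all genes (3.63% higher and 4.5% lower). The 8 added by the block were DCX, STMN2, STMN4, NEFL, NEFM, INA, CELF4 and NSG2, all lower in VM. The 3 VM values lay wholly below the 3 Control values for 12 of the 35 and wholly above them for 2, where all genes gave 8.75% below and 9.17% above. In same-numbered libraries, VM was below Control in all 3 pairs for 18 of the 35 and above in all 3 for 3, where all genes gave 20.4% below and 21.1% above.

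**Figure D1:**
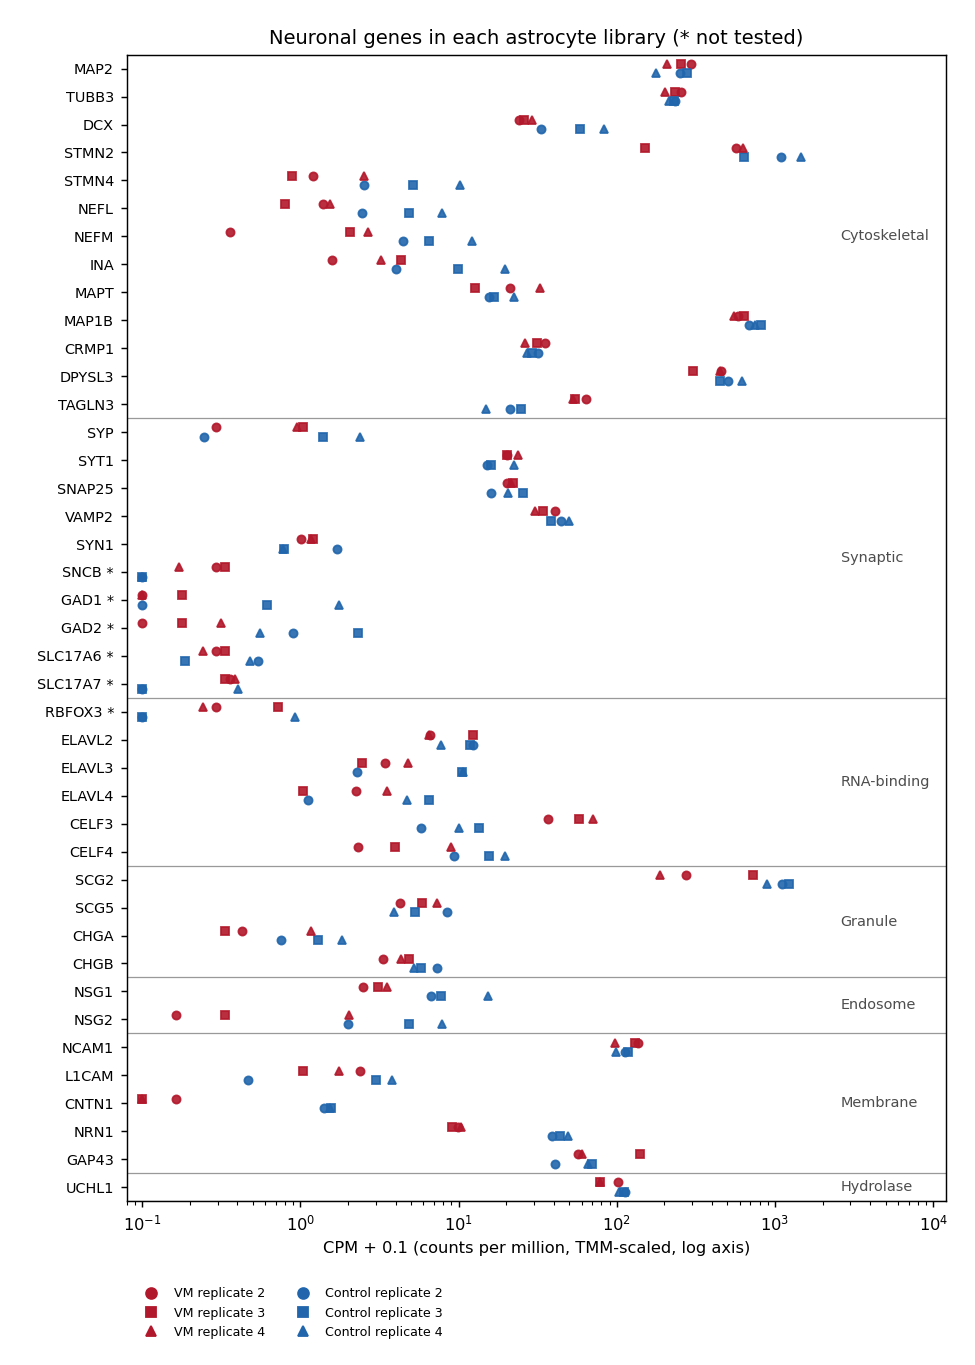
Level of each of the 41 neuronal genes in each library, as CPM + 0.1 on a log axis, by role from top to bottom. Red symbols are VM and blue symbols Control, the symbol shape gives the replicate number, and an asterisk marks the 6 genes not tested. CELF3 and TAGLN3 have red symbols to the right of blue, NRN1 and NSG1 the reverse, and MAP2, TUBB3 and SNAP25 overlap.

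Summed over the 41 genes, the level was 3034, 2964 and 2816 CPM in VM replicates 2, 3 and 4, against 4413, 4306 and 4807 CPM in Control replicates 2, 3 and 4. All VM sums lay below all Control sums. SCG2 and STMN2 made up 27.9% to 29.5% of the sum in VM and 43.4% to 49.5% in Control. Without these 2 genes the other 39 summed to 2188, 2092 and 2001 CPM in VM, against 2227, 2437 and 2459 CPM in Control.

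Among the 13 cytoskeletal genes, all tested, 1 was called, TAGLN3, which was higher in VM. With the block 1 was higher and 6 were lower. The median log2 fold change was -0.37, with 5 positive and 8 negative. Over the same-numbered pairs, the median log2 ratio of (CPM + 0.5) was -0.24 in pair 2, -0.57 in pair 3 and -0.46 in pair 4.

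TAGLN3 (transgelin 3, a neuron-enriched protein of the calponin family; chromosome 3, 111998664 to 112013887, plus strand) had 63.4, 54.3 and 52.8 CPM in VM, against 21.1, 24.6 and 14.9 CPM in Control. Every VM library was above every Control library. The means were 56.8 ± 5.74 CPM in VM and 20.2 ± 4.90 CPM in Control (SD, n = 3 each), a log2 fold change of 1.49 ± 0.21 (edgeR adjusted p = 0.00495). It passed in each fit that left out 1 library, with adjusted p up to 0.0307, but not without replicate 4 of both groups (edgeR adjusted p = 0.0966).

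The neurofilament genes were scarce in both groups. NEFL, the light subunit, had 1.3, 0.706 and 1.43 CPM in VM, against 2.34, 4.79 and 7.71 CPM in Control. NEFM, the medium subunit, had 0.260, 1.96 and 2.58 CPM in VM, against 4.39, 6.42 and 12.03 CPM in Control. INA, which encodes alpha-internexin, a filament protein of developing neurons, had 1.495, 4.23 and 3.15 CPM in VM, against 3.95, 9.84 and 19.4 CPM in Control. The VM values were wholly below Control for NEFL and NEFM, while for INA 1 VM library exceeded the lowest Control library. Log2 fold changes were -2.10 ± 0.56 for NEFL, -2.25 ± 0.70 for NEFM and -1.91 ± 0.59 for INA. None passed edgeR's test (adjusted p = 0.0948, 0.190 and 0.191), and all 3 passed with the block (edgeR adjusted p = 0.0298, 0.00403 and 0.00603). Over all alternatives their adjusted p ran from 4.88e-05 to 0.732.

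The microtubule genes of young neurons differed among themselves. DCX, the doublecortin gene of migrating neurons (chromosome X, 111293779 to 111412429, minus strand), had 24.1, 26.0 and 29.1 CPM in VM, against 33.1, 58.4 and 82.6 CPM in Control. The groups did not overlap, and Control spread more widely than VM, with a log2 fold change of -1.14 ± 0.29 (edgeR adjusted p = 0.0997, and 0.00344 with the block, over a range of 2.91e-06 to 0.457 in all alternatives). Without Control replicate 2 it was -1.42 (edgeR adjusted p = 0.0172).

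STMN2, a tubulin-binding stathmin of growing axons, had 570, 150 and 626 CPM in VM, against 1087, 639 and 1456 CPM in Control. Replicate 3 was the lowest library in each group, and all VM values lay below all Control values. The log2 fold change was -1.24 ± 0.61 (edgeR adjusted p = 0.537, and 0.00907 with the block). Without replicate 3 of both groups it was -1.09 (edgeR adjusted p = 0.0314), and its adjusted p ran from 0.00907 to 0.843 over all alternatives. The proliferation markers were highest in the same replicate 3 libraries, and their part in this result was not tested. STMN4, a related stathmin, had 1.11, 0.784 and 2.43 CPM in VM, against 2.41, 5.05 and 10.1 CPM in Control. Its highest VM library lay just above its lowest Control library, and its log2 fold change was -2.02 ± 0.62 (edgeR adjusted p = 0.164, and 0.0156 with the block, over 0.00462 to 0.583 in all alternatives).

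The other 6 cytoskeletal genes had log2 fold changes between -0.37 and 0.29, and none passed with or without the block. MAP2, a dendritic microtubule-associated protein, had 295, 255 and 206 CPM in VM, against 250, 276 and 177 CPM in Control, with a log2 fold change of 0.11 ± 0.20 (edgeR adjusted p = 0.917). TUBB3, the neuronal beta-tubulin, had 255, 234 and 203 CPM in VM, against 233, 231 and 214 CPM in Control, with 0.03 ± 0.15 (edgeR adjusted p = 0.972). The groups overlapped for both, and the sign of each changed in some alternatives. MAPT, which encodes the axonal protein tau, averaged 22.1 ± 10.1 CPM in VM and 18.1 ± 3.59 CPM in Control (SD, n = 3 each), and CRMP1, a collapsin response mediator, 30.9 ± 4.41 CPM in VM and 29.2 ± 2.40 CPM in Control.

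MAP1B, a microtubule-associated protein of growing axons, had 580, 639 and 553 CPM in VM, against 687, 813 and 746 CPM in Control. Its groups did not overlap, but the log2 fold change of -0.34 ± 0.15 did not pass (edgeR adjusted p = 0.406). DPYSL3, another collapsin response mediator, had 459, 303 and 450 CPM in VM, against 503, 450 and 619 CPM in Control. The log2 fold change was -0.37 ± 0.20 (edgeR adjusted p = 0.522), and VM replicates 2 and 4 were at or above Control replicate 3.

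**Figure D2:**
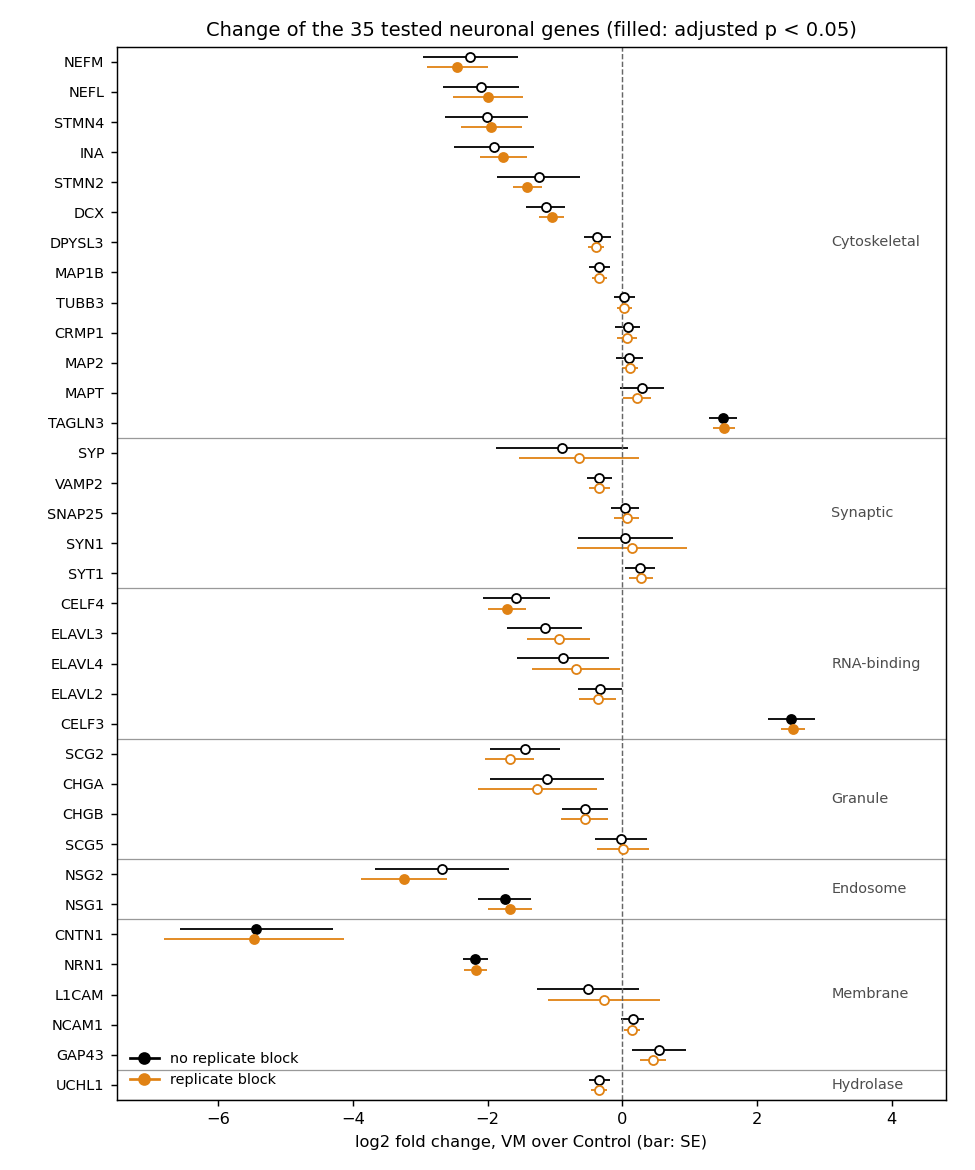
Log2 fold change of VM over Control for the 35 tested neuronal genes, with bars for the SE, by role from top to bottom and sorted by value within each role. Black is the fit without and orange the fit with the replicate block, and filled symbols passed an adjusted p of 0.05. Filled black symbols are CELF3, TAGLN3, NRN1, NSG1 and CNTN1. In the cytoskeletal group 7 orange symbols are filled and in the synaptic group none.

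Of the 10 synaptic genes, 5 were tested and none was called, by edgeR with or without the block, by DESeq2 or by limma voom. In edgeR 0 of the 5 had an unadjusted p under 0.05 without the block, where 12.01% of all genes did, and 1 with it, namely VAMP2. Their median log2 fold change was 0.04, against -0.37 for the cytoskeletal genes, a difference that was not tested. The pair medians were 0.10 in pair 2, -0.17 in pair 3 and 0.07 in pair 4.

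SNAP25, a SNARE protein of the presynaptic membrane, had 20.1, 22.0 and 21.4 CPM in VM, against 16.02, 25.5 and 20.3 CPM in Control. SYT1, the calcium sensor of vesicle release, had 20.1, 20.2 and 23.5 CPM in VM, against 15.0, 15.8 and 22.4 CPM in Control. VAMP2, the vesicle SNARE, had 40.4, 34.0 and 30.3 CPM in VM, against 44.4, 38.2 and 49.8 CPM in Control. All 3 genes overlapped between the groups, with log2 fold changes of 0.04 ± 0.21 for SNAP25, 0.26 ± 0.22 for SYT1 and -0.34 ± 0.18 for VAMP2 (edgeR adjusted p = 0.975, 0.735 and 0.515). SYP, the vesicle membrane protein synaptophysin, had 3, 12 and 12 reads in VM and 2, 15 and 30 in Control. SYN1, whose window holds both RE1 parts, had 14, 14 and 15 reads in VM and 22, 8 and 9 in Control. TIMP1 and ARAF overlap SYN1 on the opposite strand, and TIMP1 averaged 303 CPM in VM and 538 CPM in Control, so that reads of these loci may be shared if strand was not used in counting.

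The 5 synaptic genes not tested had few reads. GAD1, a GABA-synthesizing enzyme, had 0, 1 and 0 reads in VM and 0, 6 and 22 in Control, a ratio of library-scaled reads of 0.0327 (95% counting interval 0.0008 to 0.198). GAD2 had 0, 1 and 3 reads in VM and 11, 26 and 6 in Control, a ratio of 0.0852 (95% counting interval 0.0222 to 0.235). For GAD1, 1 Control library was at 0 like 2 of the VM libraries, whereas each GAD2 value in VM was below each in Control. These intervals cover counting error only, not the spread between libraries.

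SLC17A6, a vesicular glutamate transporter, had 3, 3 and 2 reads in VM and 6, 1 and 5 in Control. SLC17A7, its cortical relative, had 4, 3 and 4 reads in VM and 0, 0 and 4 in Control. SNCB, which encodes beta-synuclein, had 3, 3 and 1 reads in VM and none in Control. With the Control group set to a floor of 3 reads, it was at least 2.14-fold higher in VM, leaving out counting error of the VM reads. Both transporter genes overlapped between groups, and the counting intervals of their ratios, 0.217 to 1.63 for SLC17A6 and 0.747 to 10.8 for SLC17A7, included 1.

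CELF3 (chromosome 1, 151702404 to 151716814, minus strand), a CELF-family splicing regulator of brain, was the RNA-binding gene called. It had 36.6, 57.7 and 70.8 CPM in VM, against 5.71, 13.3 and 9.98 CPM in Control. The lowest VM library was above the highest Control library. The means were 55.0 ± 17.2 CPM in VM and 9.68 ± 3.83 CPM in Control (SD, n = 3 each), a log2 fold change of 2.51 ± 0.35 (edgeR adjusted p = 0.00859). Same-numbered log2 ratios were 2.58, 2.07 and 2.76. The call was lost without Control replicate 4 (edgeR adjusted p = 0.0702) and without replicate 4 of both groups (edgeR adjusted p = 0.165, over a range of 3.19e-25 to 0.165 in all alternatives). RIIAD1, which overlaps CELF3 on the opposite strand, had 3.42 CPM in VM and 0.564 CPM in Control.

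CELF4, of the same family, had the opposite order. It had 2.21, 3.84 and 8.81 CPM in VM, against 9.29, 15.4 and 19.6 CPM in Control, with no overlap. The log2 fold change was -1.57 ± 0.50 (edgeR adjusted p = 0.195, and 0.00141 with the block, over 6.82e-05 to 0.508 in all alternatives). Replicate 4 was its highest library in both groups, and without VM replicate 4 the difference was -2.29 (edgeR adjusted p = 0.0454).

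The ELAVL genes encode Hu proteins, which stabilize neuronal mRNAs. ELAVL2 had 6.50, 12.2 and 6.44 CPM in VM, against 12.3, 11.7 and 7.64 CPM in Control. ELAVL3 had 3.32, 2.35 and 4.73 CPM in VM, against 2.19, 10.4 and 10.6 CPM in Control, and ELAVL4 2.15, 0.941 and 3.44 CPM in VM, against 1.02, 6.42 and 4.61 CPM in Control. All 3 overlapped between groups, and none passed with or without the block. For ELAVL3 and ELAVL4 VM exceeded Control in pair 2, and Control exceeded VM in pairs 3 and 4. RBFOX3, the NeuN antigen of mature neurons, had 3, 8 and 2 reads in VM and 0, 0 and 11 in Control, and was not tested.

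The 4 secretory granule genes had negative log2 fold changes, with a median of -0.84, and none was called by edgeR with or without the block, by DESeq2 or by limma voom. In edgeR 1 had an unadjusted p under 0.05, namely SCG2. SCG2 (chromosome 2, 223596940 to 223602503, minus strand) encodes the granin secretogranin II. It had 276, 723 and 188 CPM in VM, against 1099, 1229 and 893 CPM in Control. The groups did not overlap, and VM replicate 3 stood well above the other VM libraries. On the log2 scale the difference was -1.44 ± 0.52 (edgeR adjusted p = 0.337). Without VM replicate 3 it was -2.21 (edgeR adjusted p = 0.00218), the smallest adjusted p over the alternatives, which reached 0.583. Without replicate 3 of both groups it was -2.10 (edgeR adjusted p = 0.00376). Proliferation markers were highest in VM replicate 3 too, and their part was not tested.

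The other granule genes were scarce. CHGB, which encodes chromogranin B, had 3.25, 4.78 and 4.23 CPM in VM, against 7.17, 5.73 and 5.14 CPM in Control. CHGA, for chromogranin A, averaged 0.545 ± 0.461 CPM in VM and 1.20 ± 0.541 CPM in Control (SD, n = 3 each), and SCG5, a chaperone of prohormone convertase, 5.71 ± 1.503 CPM in VM and 5.80 ± 2.37 CPM in Control. CHGB did not overlap between groups, whereas CHGA and SCG5 did.

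Both endosomal genes encode neuron-specific proteins of receptor trafficking. NSG1 (chromosome 4, 4348140 to 4419058, plus strand) had 2.41, 2.98 and 3.44 CPM in VM, against 6.58, 7.70 and 15.4 CPM in Control. The groups did not overlap, and Control replicate 4 was the highest library. Its log2 fold change was -1.75 ± 0.39 (edgeR adjusted p = 0.0498), at the edge of the threshold, and no fit that left out 1 library called it (edgeR adjusted p = 0.0557 to 0.234). STX18 overlaps NSG1 on the opposite strand and averaged 13.6 CPM in VM and 12.8 CPM in Control. NSG2 had 1, 3 and 27 reads in VM, against 26, 56 and 102 in Control, so that VM replicate 4 was close to Control replicate 2. Its log2 fold change was -2.68 ± 1.0 (edgeR adjusted p = 0.303, and 0.00568 with the block, over 0.000887 to 0.656 in all alternatives). Without VM replicate 4 it was -4.96 (edgeR adjusted p = 0.0454).

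Of the 5 membrane genes, NRN1 and CNTN1 were lower in VM. NRN1 (chromosome 6, 5997999 to 6007605, minus strand) encodes neuritin, a lipid-anchored protein that promotes neurite growth. It had 9.75, 8.94 and 10.3 CPM in VM, against 39.1, 43.9 and 48.9 CPM in Control. Libraries lay close together within each group and far apart between groups. The means were 9.67 ± 0.691 CPM in VM and 43.9 ± 4.90 CPM in Control (SD, n = 3 each), a log2 fold change of -2.18 ± 0.19 (edgeR adjusted p = 0.000353). It was called in every alternative, with adjusted p up to 0.0336.

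CNTN1 (chromosome 12, 40692442 to 41072418, plus strand), an axonal adhesion molecule, had 1, 0 and 0 reads in VM, against 18, 17 and 19 in Control. The ratio of library-scaled reads, VM over Control, was 0.0170 (95% counting interval 0.000422 to 0.0987). It passed edgeR's test (adjusted p = 0.0371) but no fit that left out 1 library (adjusted p = 0.0786 to 0.127). In the authors' deposited table its level relative to the sum used here was 1.61, and the test on that table did not call it (limma adjusted p = 0.116).

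GAP43, a growth cone protein, had 57.1, 140 and 60.0 CPM in VM, against 40.5, 69.5 and 65.9 CPM in Control, with overlap and a log2 fold change of 0.55 ± 0.40 (edgeR adjusted p = 0.704). NCAM1, the neural cell adhesion molecule, averaged 121 ± 20.5 CPM in VM and 109 ± 10.1 CPM in Control, and L1CAM, an axonal relative, 1.62 ± 0.667 CPM in VM and 2.33 ± 1.74 CPM in Control (SD, n = 3 each). Neither passed with or without the block. UCHL1, an abundant neuronal deubiquitinase, had 102, 78.1 and 78.6 CPM in VM, against 113, 112 and 103 CPM in Control. Its groups did not overlap, by a narrow margin, and its log2 fold change of -0.34 ± 0.16 did not pass (edgeR adjusted p = 0.434).

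**Figure D3:**
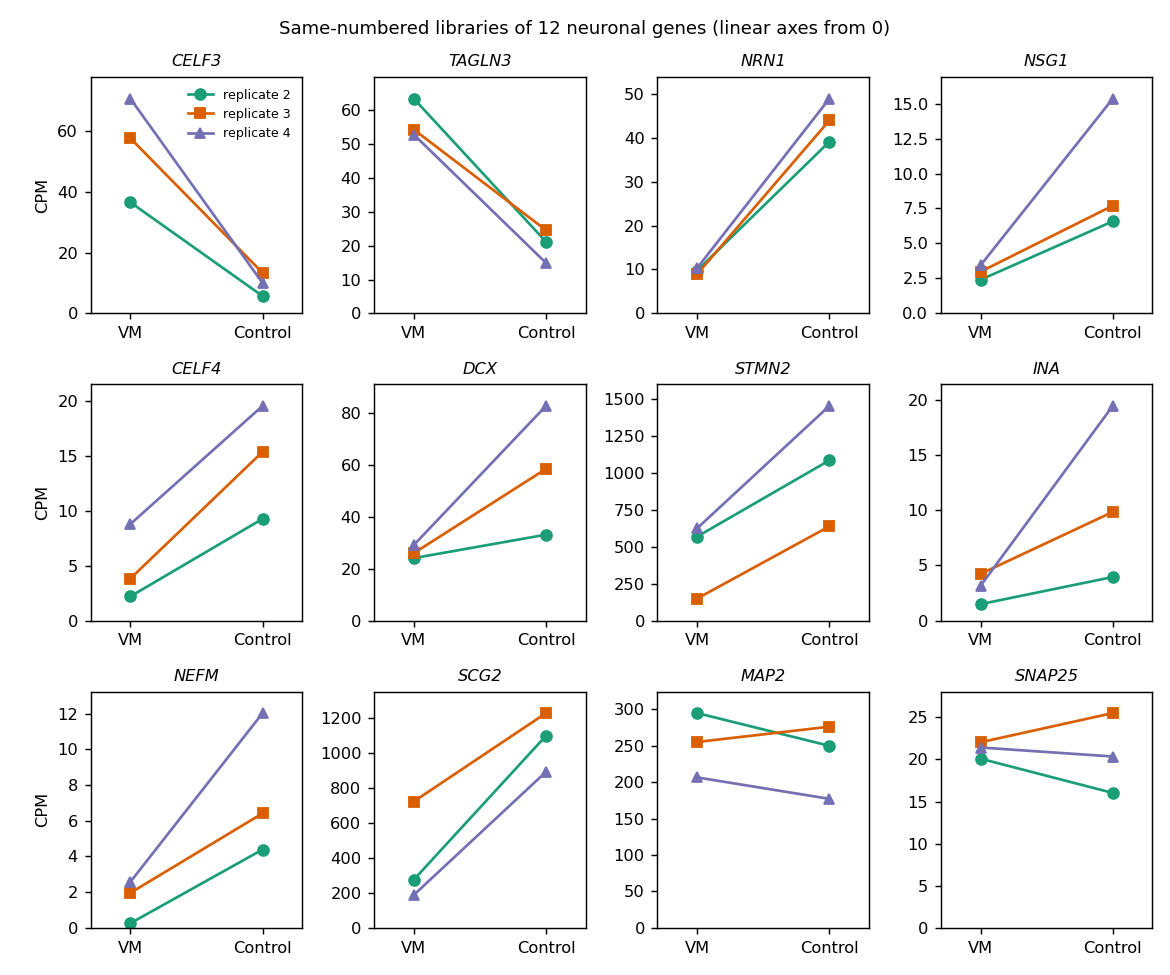
CPM of 12 neuronal genes in VM (left) and Control (right), on linear axes from 0, with a line joining libraries of the same replicate number. CELF3 and TAGLN3 are higher in VM in all 3 pairs, NRN1, NSG1, CELF4, DCX, STMN2, INA, NEFM and SCG2 are lower in VM in all 3, and MAP2 and SNAP25 differ in direction between pairs.

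Libraries of 1 group also differed among themselves. Of the 35 tested genes, 13 had their highest level in replicate 4 of both groups (37.1%, beside 14.5% of all tested genes). These were DCX, STMN2, STMN4, NEFL, NEFM, MAPT, SYT1, ELAVL3, CELF4, CHGA, NSG1, NSG2 and NRN1. Only 4, MAP1B, SNAP25, SCG2 and GAP43, were highest in replicate 3 of both groups (11.4%, beside 17.6% of all), and 3, TUBB3, CRMP1 and UCHL1, in replicate 2 of both (8.57%, beside 15.5%). Of the 8 genes added by the block, all but INA were highest in replicate 4 of both groups. INA was highest in replicate 3 in VM and in replicate 4 in Control.

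The deviations of libraries from their group means differed even among these 13 genes. Over the 6 libraries Pearson's r of the deviations ran from -0.111, between STMN2 and NEFM, to 0.984, between NRN1 and NEFL. STMN2 had an r of 0.13 with DCX, 0.185 with CELF4 and 0.206 with ELAVL3. Between 1 of the 13 and a gene outside them, r was -0.942 for STMN2 with SCG2 and -0.998 for CELF4 with CRMP1. These values describe 6 libraries that share depth and composition and whose deviations sum to 0 within each group.

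**Figure D4:**
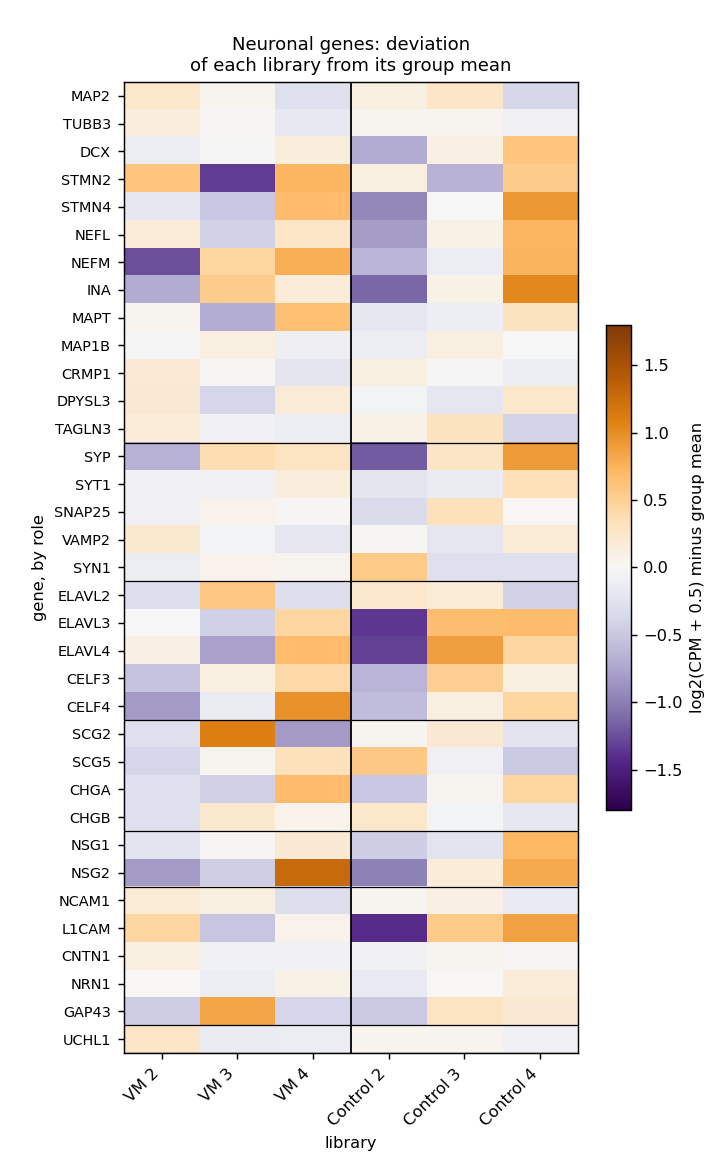
Deviation of log2(CPM + 0.5) from the group mean for the 35 tested neuronal genes (rows, by role) in the 6 libraries (columns, VM left and Control right), with orange above and purple below the mean. The 13 genes highest in replicate 4 of both groups, which include DCX, STMN2, NEFL, NEFM and CELF4, are orange in both replicate 4 columns. Some others, such as INA and ELAVL4, are orange in both as well. STMN2 is purple in replicate 3 of both groups.

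Regulators of neuronal genes were taken from further lists, chosen like the 41 genes with earlier results of these data known. REST had 133, 152 and 129 CPM in VM, against 124, 133 and 128 CPM in Control, a log2 fold change of 0.11 ± 0.14 (edgeR adjusted p = 0.870). PTBP1, which represses neuronal exons in other cells, had a log2 fold change of 0.04 ± 0.16 (edgeR adjusted p = 0.972). Both genes overlapped between the groups. Among 17 repressors tested, ID3 and ID4, which block proneural basic helix-loop-helix factors, were higher in VM and none was lower, with a median log2 fold change of 0.13 over the 17. ID4 had 524, 691 and 467 CPM in VM, against 117, 135 and 106 CPM in Control, a log2 fold change of 2.23 ± 0.19 (edgeR adjusted p = 0.000353). ID3 had 773, 884 and 837 CPM in VM, against 381, 337 and 376 CPM in Control, with 1.19 ± 0.15 (edgeR adjusted p = 0.00368). Both were above Control in every VM library. ID1 (edgeR adjusted p = 0.0834, but 0.000715 with the block) and ID2 (0.066, but 0.000206 with the block) had higher levels in VM as well.

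Of 20 proneural and neuronal transcription factors, 6 were tested and SOX4, a SoxC factor of differentiating neurons and progenitors, was higher in VM. It had 1286, 1283 and 1231 CPM in VM, against 834, 634 and 622 CPM in Control, with no overlap and a log2 fold change of 0.86 ± 0.17 (edgeR adjusted p = 0.0262). Of the fits that left out 1 library, only the fit without Control replicate 2 called it (edgeR adjusted p = 0.0327 to 0.149 over the 6). Its relative SOX11, at 0.85 ± 0.20, did not pass without the block and passed with it (edgeR adjusted p = 0.056, and 0.000291 with the block, over 9.64e-05 to 0.396 in all alternatives). EOMES, a factor of intermediate neuronal progenitors, had 0, 0 and 3 reads in VM and 13, 15 and 31 in Control, and, like CNTN1, it entered the test through Control alone. Its adjusted p in edgeR was 0.106, and 0.0332 with the block.

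Of 12 neuronal splicing factors tested, NOVA2 was higher in VM, at 93.7, 89.2 and 80.6 CPM in VM against 38.9, 47.6 and 48.3 CPM in Control, without overlap (log2 fold change 0.97 ± 0.15, edgeR adjusted p = 0.0105). The call was lost without VM replicate 2 and without Control replicate 2 (edgeR adjusted p up to 0.0531). It was also lost without replicate 4 of both groups (edgeR adjusted p = 0.1185). None was lower, while RBFOX1 and RBFOX2 passed with the block, both lower. The median over the 12 was 0.17.

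**Figure D5:**
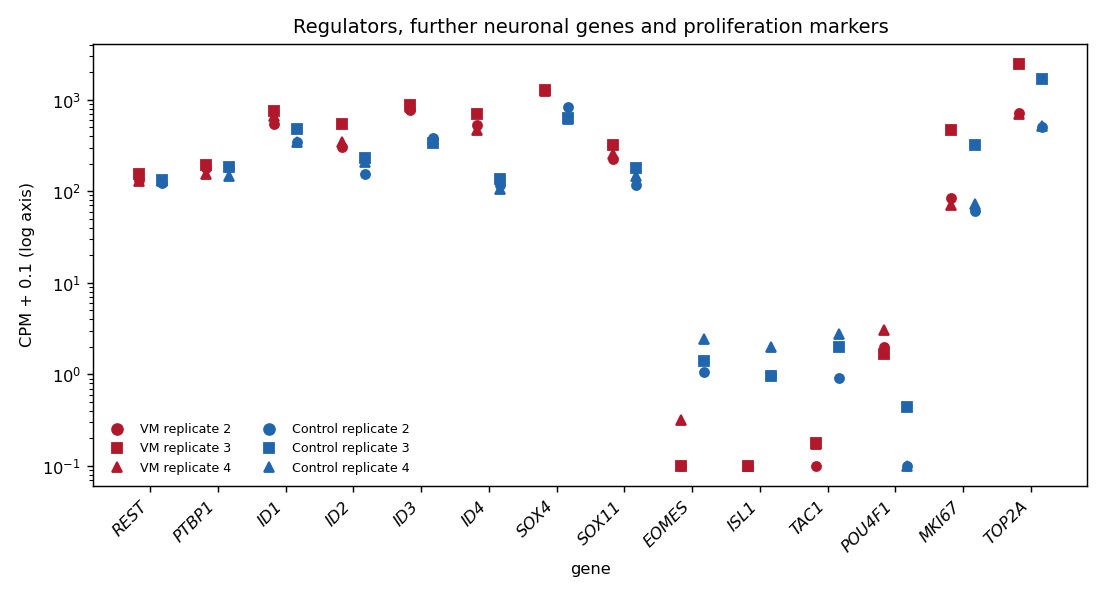
CPM + 0.1 on a log axis of regulators, further neuronal genes and 2 proliferation markers, with VM (red) left of Control (blue) for each gene and symbol shape for the replicate number. ID3, ID4 and SOX4 lie higher in VM, REST and PTBP1 overlap, and MKI67 and TOP2A are highest in replicate 3 of both groups.

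In 20 further cytoskeletal and axonal transport genes tested, MLLT11 was higher in VM, at 94.6, 124 and 109 CPM in VM against 50.6, 63.4 and 73.7 CPM in Control (log2 fold change 0.80 ± 0.18, edgeR adjusted p = 0.0479). The groups did not overlap, but no fit that left out 1 library called it (edgeR adjusted p = 0.0764 to 0.163), nor did limma voom, the length offset or the deposited values. With the block STMN1, TUBB2B and DPYSL2 were also higher and STMN3 was lower, and the median of the 20 was 0.10 in the fit without it. Among these, TUBB2B, a beta-tubulin of developing neurons, had 312, 300 and 277 CPM in VM against 161, 193 and 213 CPM in Control, and the stathmin STMN3 had 30.6, 33.0 and 20.8 CPM in VM against 43.7, 57.7 and 53.8 CPM in Control.

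Of 18 further presynaptic genes and 17 postsynaptic and channel genes tested, none was called by edgeR. In edgeR 2 of the 18 and 3 of the 17 had an unadjusted p under 0.05, near the 12.01% of all genes, and DESeq2 called 1 in each list and limma voom 0 in each. With the block SV2C, a vesicle glycoprotein, was higher, at 6.63, 17.2 and 10.96 CPM in VM against 1.76, 2.14 and 5.67 CPM in Control, without overlap, and 1 of the 17 postsynaptic and channel genes was lower. The median log2 fold change was -0.25 over the presynaptic and 0.17 over the postsynaptic genes.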

How the data were processed

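RNA was extracted with TRIzol and polyadenylated RNA was made into QuantSeq 3′ FWD libraries, per the labels' protocols. Salmon, DESeq2 1.27.12 and the build GRCh38.p13 are named in the submitters' processing notes. The Salmon version, the annotation and the strand setting are not given in the sources used here.

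Each library's deposited table gives estimated counts, TPM and an effective length per transcript, per the file headers. The authors' deposited gene table holds a normalized signal per gene with no stated scaling step, and served as an alternative only. The TPM values in the deposited tables were not used. Estimated counts were summed per gene through the GENCODE 29 annotation and rounded. It matched 205225 of 226608 transcripts, and 0.992% to 1.12% of reads were unmatched. 3′ reads do not scale with transcript length, so CPM was used without a length term.

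The test was edgeR 4.0.16 (R 4.3.3) glmQLFit and glmQLFTest after filterByExpr (minimum count 10) and TMM, over all 6 libraries without covariates, with Benjamini-Hochberg adjustment. It was also run on simulated counts, which were drawn without any effect shared by same-numbered libraries. Ratios of few reads carry exact 95% counting intervals, and a group at 0 was set to a floor of 3 reads. Other scalings (upper-quartile, RLE), other filters (none, or 2 CPM in 3 libraries), other tools (DESeq2 1.42.0, limma 3.58.1 with voom), a replicate block and an effective-length offset were tried, as were the authors' own normalized values, taken as log2(value + 1), and fits without single libraries. Leaving out replicate 3 or replicate 4 of both groups was chosen after seeing the data.

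Deviations from the group means correlated at 0.277, 0.409 and 0.25 between libraries of the same number and at most 0.0341 between others, so the numbers were taken to pair the libraries. The deviations sum to 0 within each group, so positive values between same-numbered libraries bring low or negative values between others. That contrast is therefore partly built in. This pairing comes from the same data as the fit with the block, as the labels do not say what the numbers mark.

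The members and lists were chosen with earlier results of these data known. All 41 members are named. Of the other lists, genes past the threshold with or without the block, the most abundant, and REST and PTBP1 could be named. A few results on items withheld for evaluation are not reported here. Promoters are from RefSeq.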

Additional observations from a re-analysis of the deposited data

How the results depend on the processing

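Without the block 344 genes and 5 of the 41 neuronal genes passed. With the replicate block these were 1300 and 13. Without a low-count filter they were 1012 and 12, with DESeq2 747 and 11, with the length offset 173 and 3, and with the deposited normalized values 182 and 3. A minimum of 2 CPM gave 335 and 3, and limma voom 262 and 3. Leaving out libraries gave 28 to 266 genes and 1 to 5 neuronal genes, the lowest without replicate 4 of both groups. Single VM replicates 2 and 4 and Control replicates 2 and 4 moved the genes called by over 1.5 times (159, 164, 183 and 135), and the neuronal genes called were 3 without VM replicate 2 or Control replicate 3 and 2 without Control replicate 4. Apart from the 8 genes it added, the block changed no other call among the 41.

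The cytoskeletal median stayed between -0.48 and -0.32. The synaptic median was -0.14 without a filter, -0.14 with the length offset, and -0.21 to 0.067 when libraries were left out. NRN1 was called in all alternatives, TAGLN3 in all but the fit without replicate 4 of both groups, and CELF3 in all but that fit and the fit without Control replicate 4. DCX gained a call without Control replicate 2, SCG2 without VM replicate 3, and CELF4 and NSG2 without VM replicate 4. NSG1 and CNTN1 lost their calls with limma voom, the length offset and the deposited values, and NSG1 also with upper-quartile scaling and 2 CPM. The cause was not tested.

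Depth limits the 6 untested genes, which had 7 to 47 reads over all libraries.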

Other observations

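Neuropeptide and neuron subtype genes lay outside the lists above. Of 9 neuroendocrine genes tested, TAC1, the precursor of substance P, was lower in VM, with 0, 1 and 1 reads in VM against 11, 22 and 35 in Control (edgeR adjusted p = 0.0431). It entered the test through Control alone, and it was not called in any fit that left out 1 library (edgeR adjusted p = 0.0509 to 0.163), by limma voom, with the length offset or in the deposited values. VGF, a granule peptide precursor, had 290, 458 and 94.5 CPM in VM, against 51.1, 90.6 and 25.3 CPM in Control. Replicate 3 was its highest and replicate 4 its lowest library in both groups, and it passed with the replicate block and in no other alternative (log2 fold change 2.34 ± 0.78, edgeR adjusted p = 0.34, and 5.78e-07 with the block). PCSK1N and CADPS did not pass in the main fit, and were higher in VM with the block and in the fit without a low-count filter.

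Of 18 neuron subtype genes, 5 were tested. CALB1, which encodes the calcium buffer calbindin, was lower in VM, at 9.10, 13.4 and 5.16 CPM in VM against 69.8, 76.3 and 51.4 CPM in Control, with no overlap (log2 fold change -2.84 ± 0.33, edgeR adjusted p = 0.00403). The other 4 did not pass edgeR's test without the block, and passed with it, with DESeq2 and without a low-count filter. ISL1, a LIM-homeodomain factor, had 0 reads in VM against 12, 10 and 25 in Control. With the VM group set to a floor of 3 reads, it was at least 17.1-fold lower in VM, leaving out counting error of the Control reads. POU4F1, a POU factor of sensory and midbrain neurons, had 29, 20 and 41 reads in VM against 0, 4 and 0 in Control, and CALB2 and RELN had lower levels in VM. ISL1 entered the test through Control alone and POU4F1 through VM alone. No library had a read of CHAT, SLC6A4, PHOX2A, NEUROD6, SV2B, GRIN1 or RESP18.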
